A study of Mus musculus with 3 samples.

Results

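The LIF receptor and STAT3 pathway was followed through 7 genes chosen by symbol: Lifr and Il6st for the receptor chains, Jak1 for a kinase bound to them, Stat3 for the transcription factor, and Socs3, Pim1 and Pim3 for its targets. Each symbol matched 1 row of the count tables, so that 7 of 52636 genes were taken, and all 7 passed the filter on low counts that left 17514 genes for testing. The cells were mouse ES cells of the JM8.N4 line (strain C57BL/6N) whose cohesin subunit RAD21 was fused to an auxin-inducible degron (AID). Control cells were untreated, and auxin cells received 500 μM indole-3-acetic acid for 6 h, which marks the tagged protein for degradation. Every group shared the edited RAD21-AID line with the Tir1 adaptor. The routine medium held 15% serum, 1000 units of LIF and the 2i inhibitors PD0325901 (1 μM, against MEK) and CHIR99021 (3 μM, against GSK3). Cells were grown on gelatin without feeder cells. This recipe is given for all cells together, and the medium of each replicate was not checked. By that recipe the pathway was read in cells that all received its ligand.

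LIF binds the LIFR chain, which pairs with gp130, the product of Il6st. The paired chains activate JAK kinases, JAK1 foremost, which phosphorylate STAT3, and STAT3 then enters the nucleus and switches on its targets. In mouse ES cells this pathway, together with the 2i inhibitors, holds the cells in the naive pluripotent state. SOCS3 closes a feedback loop, since it is induced by STAT3 and blocks gp130 and the JAKs, while PIM1 and PIM3 are serine and threonine kinases that STAT3 induces.

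Smart-SCRB was used, a plate assay in which 1 sorted cell per well is tagged with a well barcode and each captured transcript with a unique molecular identifier (UMI). A count is thus a number of molecules, and levels are given as CPM, the molecules of a gene scaled to an equal total in every sum. Since each molecule is counted once whatever its length, and capture can differ between transcripts, levels are compared for 1 gene between samples and not between genes. The data came as 3 replicates with both conditions in each. Past the filter of more than 2600 detected genes, replicate 1 held 168 control and 169 auxin cells on 4 plates, replicate 2 held 371 and 290 on 8 plates, and replicate 3 held 85 and 84 on 2 plates. A further 2 plates of replicate 3, with 168 cells, carry 1 condition in the deposited annotation and the other in the source values of the study, and were left out of the sums. The UMI total per replicate and condition ran from 6064936 to 50448320, and the median per cell from 72317 to 187088, highest in replicate 2. No well name was shared between replicates (0 of 1536 wells). The study repeated the whole procedure for each replicate and calls them biological replicates, and p-values measure the spread between these 3 runs.

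The label of ES cells was checked on 10 markers, and all 10 had UMIs, but not in every replicate. Sox2 stood at 155 CPM in control and 97.3 CPM in auxin cells of replicate 1 and at 0 UMIs in replicates 2 and 3, where a count of 0 allows at most 0.0302 and 0.235 CPM. Pou5f1 split likewise, at 228 to 273 CPM in replicate 1 and 5.81 to 12.5 CPM in the others. Nanog split in another way, at 38.9 to 58.6 CPM in replicate 2 and 495 to 563 CPM in replicates 1 and 3, and so did Zfp42 (73.1 to 83.5 and 184 to 303 CPM) and Esrrb (6.78 to 17.7 and 61.7 to 125 CPM). Utf1 and Lin28a went the other way, at 174 to 182 and 36.1 to 37.1 CPM in replicate 2 and 9.20 to 52.1 and 2.96 to 9.73 CPM in the others, while Tdgf1 (508 to 642 CPM) and Sall4 (96.7 to 184 CPM) did not set replicate 2 apart. The summed ES cell markers, led by Dppa5a, ran from 3102 to 4700 CPM in replicate 2 and from 7998 to 10047 CPM in replicates 1 and 3. Sums of the other lists stayed far lower, at 1.63 to 10.4 CPM for blood (highest Cd3e, with Hbb-bs at 0 UMIs), 3.74 to 27.5 for fibroblast (highest Dcn), 8.21 to 24.8 for primitive endoderm (highest Dab2) and 19.8 to 243 for trophoblast (highest Krt18). The Rad21 transcript stood at 19.3 to 45.2 CPM and checks nothing here, since auxin acts on the protein.

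The promoter sequences of the members whose levels set replicate 2 apart are shown because STAT3 binds a short palindrome, TTCNNNGAA. The RefSeq promoter table (build GRCm38.p6, the mm10 assembly) held a window for all 7 members. The 250 bases before each listed start were searched, and because the motif is palindromic 1 search covers both strands. Each run is printed 5′ to 3′ on the gene's strand from the start of its window to the next annotated exon base, in lower case with motif matches in capitals.
Socs3, chr11:117969452-117969616, minus strand: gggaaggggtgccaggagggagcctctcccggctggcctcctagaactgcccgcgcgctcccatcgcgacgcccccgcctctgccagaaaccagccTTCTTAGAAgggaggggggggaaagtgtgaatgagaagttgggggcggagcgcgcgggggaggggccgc
Stat3, chr11:100939541-100939790, minus strand: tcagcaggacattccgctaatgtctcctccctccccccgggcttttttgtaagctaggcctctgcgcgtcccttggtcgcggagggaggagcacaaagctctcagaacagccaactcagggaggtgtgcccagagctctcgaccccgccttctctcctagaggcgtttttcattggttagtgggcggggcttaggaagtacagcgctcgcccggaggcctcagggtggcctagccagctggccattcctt
Pim3, chr15:88861944-88862185, plus strand: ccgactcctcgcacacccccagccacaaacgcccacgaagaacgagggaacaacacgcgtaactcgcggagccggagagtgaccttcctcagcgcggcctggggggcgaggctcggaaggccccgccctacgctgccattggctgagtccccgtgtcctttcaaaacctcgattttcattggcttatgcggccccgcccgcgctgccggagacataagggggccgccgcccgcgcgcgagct
The annotated Socs3 gene reaches up to 117970047, upstream of its RefSeq window, so that the run shown lies between annotated exons of the gene. Socs3 held 1 match, TTCTTAGAA, whose first base lies at -154 from the listed start. It was the only member of 7 with a match in its window, and Lifr, Il6st, Jak1, Stat3, Pim1 and Pim3 had none. Of all 32851 windows 7.02% held the motif, and over the 11895 tested genes with a window 7.01% did. A match describes letters and not binding, and a window without one says nothing of STAT3 at that gene.

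The largest spread among the members lay between replicates and not between conditions. Socs3, the feedback inhibitor, gave 39.5 CPM in control and 40.4 CPM in auxin cells of the first replicate, against 29.5 and 23.9 CPM of the third. In replicate 2 it stood at 1.12 CPM in control (55 UMIs, 95% exact Poisson interval 0.845 to 1.46) and 1.76 CPM in auxin cells (89 UMIs, 1.42 to 2.17), where intervals cover counting error only. Replicate 2 was thus 30.7-fold lower in control and 18.2-fold lower in auxin cells than the mean of replicates 1 and 3. At an equal depth of 20000 UMIs per cell these folds were 36.4 and 10.4, on only 7 control and 16 auxin UMIs of replicate 2. Without thinning, auxin plate 4 held 45 of the 89 auxin UMIs, at 3.32 CPM where the other auxin plates had 0.898 to 1.50 CPM. The 8 plates of replicate 2 ran from 0.492 to 3.32 CPM and the 6 plates of the others from 23.9 to 44.8 CPM, so that no plate came near the other set. With 1 replicate against 2 no test between replicates was run, and this is a description of these runs. Only 0.555% of 17464 genes in control and 0.917% of 17455 in auxin cells had a ratio as low as that of Socs3. Of the 17514 genes tested, those at 0 UMIs in replicate 2 or in both other replicates have no such ratio. They were left out of these shares, although those at 0 in replicate 2 alone lie lower still.

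**Figure D1:**
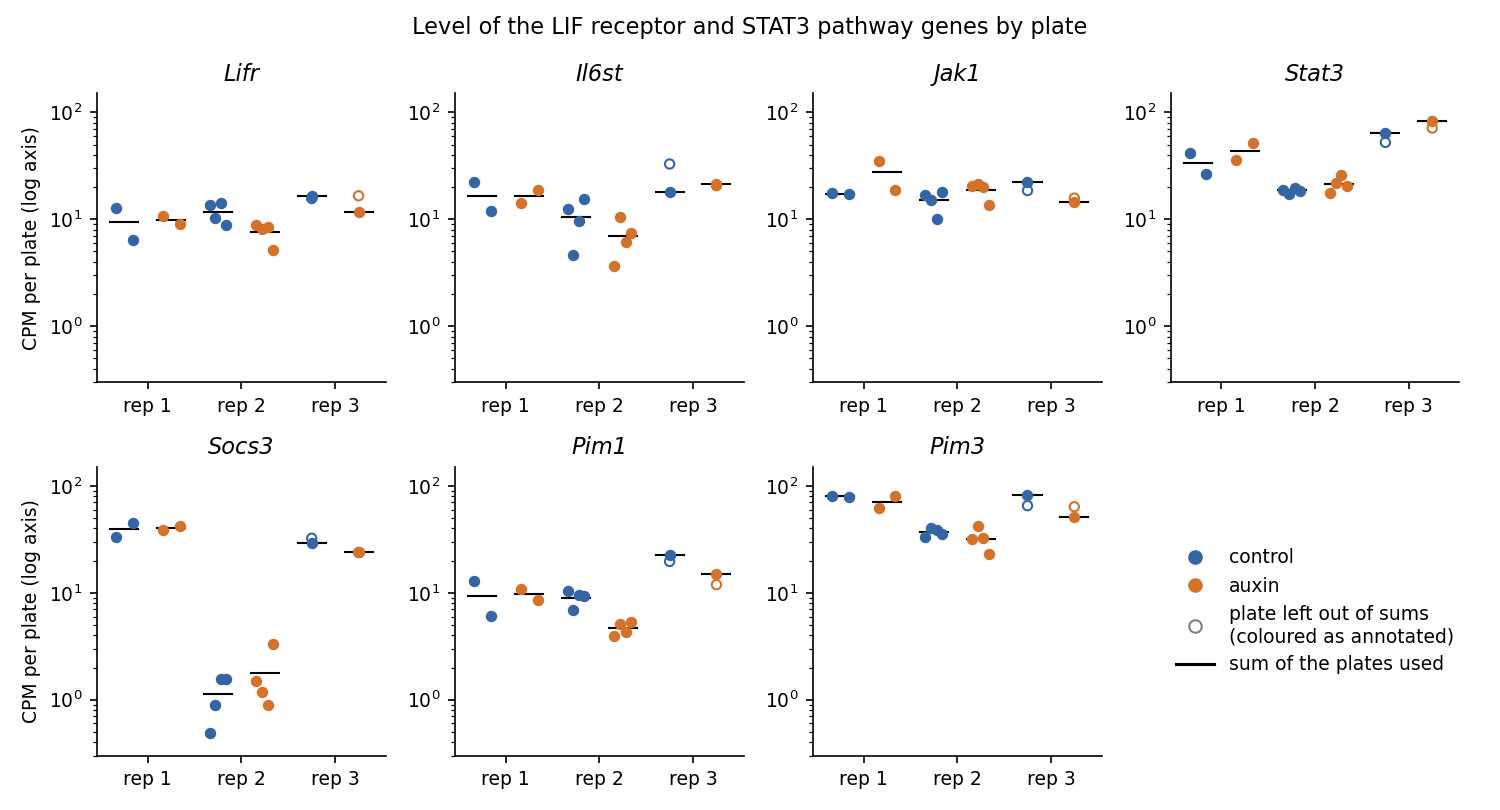
Level of each gene in CPM on every plate (log axis), by replicate and condition; filled points are the plates used, open points the 2 plates of replicate 3 left out, and black lines the sum of the plates used. Socs3 sits between 0.492 and 3.32 CPM on the 8 plates of replicate 2 and between 23.9 and 44.8 CPM on the 6 plates used of replicates 1 and 3.

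Stat3 and Pim3 split in the same direction, by less. Stat3, the transcription factor itself, ran from 17.4 to 25.8 CPM on the plates of replicate 2 (median 19.3) and from 26.5 to 82.7 CPM on those of replicates 1 and 3 (median 46.9). Its sums were 33.5, 18.6 and 64.5 CPM in control cells of replicates 1, 2 and 3, and 43.7, 21.4 and 82.7 CPM in auxin cells. Replicate 3 was therefore the highest and replicate 2 the lowest in both conditions. Pim3, a survival kinase, ran from 23.2 to 41.7 CPM in replicate 2 (median 34.4) and from 51.6 to 82.3 CPM in the others (median 79.7). The log2 ratio of replicate 2 over the mean of the others was -1.40 in control and -1.56 in auxin cells for Stat3, and -1.13 and -0.93 for Pim3. Neither gene's plates overlapped between the sets.

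The receptor chains, the kinase and Pim1 overlapped. Il6st stood at 16.6, 10.52 and 17.97 CPM in control and 16.4, 6.98 and 21.5 CPM in auxin cells of replicates 1, 2 and 3, lowest in replicate 2 in both. Its plates ran from 3.66 to 15.3 CPM in replicate 2 and from 11.8 to 22.2 CPM in the others, which overlap. Pim1 stood at 9.27, 9.03 and 22.8 CPM in control and 9.72, 4.68 and 15.0 CPM in auxin cells, with replicate 3 the highest in both conditions and replicate 2 the lowest. Control cells of replicates 1 and 2 did not differ in Pim1 beyond the spread of their plates, which ran from 6.02 to 12.98 and from 6.90 to 10.4 CPM. Lifr, the chain that binds LIF, stood at 9.38, 11.7 and 16.5 CPM in control and 9.93, 7.59 and 11.7 CPM in auxin cells. Jak1 stood at 17.4, 15.0 and 22.4 CPM in control and 27.4, 18.7 and 14.7 CPM in auxin cells, with no common order of the replicates.

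In all, 3 of 7 members had plates of replicate 2 below every plate of replicates 1 and 3, and 0 of 7 had them above. Over the 17514 tested genes 5.61% were lower without overlap and 9.18% higher. All 7 sums were below the mean of replicates 1 and 3 in both conditions, with a median log2 ratio of -0.83 in control and -1.40 in auxin cells, beside 0.17 and 0.24 over all genes. Of all genes with such a ratio 40.6% in control and 37.3% in auxin cells were below 0. Against each replicate alone this did not hold for Lifr, which stood 0.32 above replicate 1 in control cells on the log2 scale, nor for Jak1, which stood 0.35 above replicate 3 in auxin cells. With TMM scaling the medians over all genes were 0.04 and 0.06, the members' medians -0.91 and -1.58, and all 7 stayed below 0. After each cell was thinned to 20000 UMIs, Lifr turned to 0.15 in control and 0.19 in auxin cells and the other 6 stayed below 0. Replicate 2 also had more UMIs per cell, a higher deposited saturation (the fraction of reads that repeat a molecule already seen, 0.539 to 0.579 against 0.283 to 0.314 in replicate 1 and 0.470 to 0.492 on the plates used of replicate 3) and the lower ES cell marker sum given above, which Dppa5a carries. Sox2 and Pou5f1 also differed between the runs, as given above, and whether reads were counted against the same annotation in each run is not given in the sources used here. The part of these in the difference was not tested, and it touches every fold between replicates given here, those of Socs3, Tfcp2l1 and Pim2 included.

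The share of cells with a UMI was taken as another readout of the same counts, and it did not always move with the level. To compare cells of unequal depth, each was thinned to 20000 UMIs, which dropped 0 to 13 cells per group. Socs3 was then seen in 42.9% of control and 44.4% of auxin cells of the first replicate (72 of 168 and 75 of 169) and 38.1% and 31.6% of the third (32 of 84 and 25 of 79). In replicate 2 it was seen in 1.93% of control cells (7 of 363, 95% exact binomial interval 0.779 to 3.93%) and 3.97% of auxin cells (11 of 277, 2.00 to 6.99%). Without thinning the shares were 69.6, 7.28 and 64.7% in control and 78.1, 11.0 and 64.3% in auxin cells of replicates 1, 2 and 3. At such sparse counts a share of cells mostly restates the mean level. Replicate 2 had 0 control cells with more than 1 Socs3 UMI after thinning, where 13.7% of control cells of replicate 1 had 2 and 6.55% had 3 or more.

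**Figure D2:**
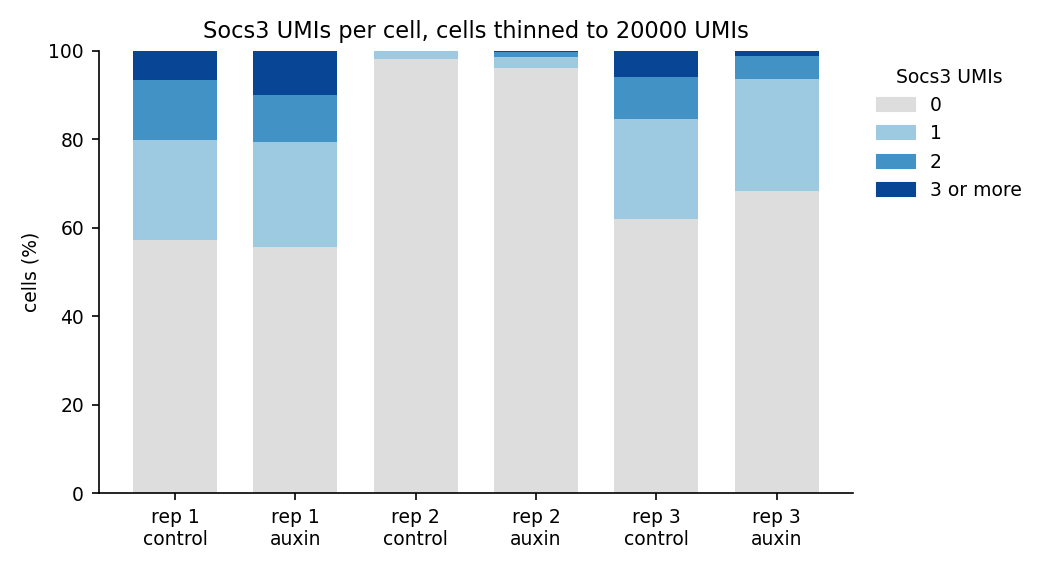
Stacked bars give the share of cells (%) with 0, 1, 2 and 3 or more Socs3 UMIs after thinning to 20000 UMIs, for each replicate and condition. Cells with 0 make up 98.1 and 96.03% of replicate 2 and between 55.6 and 68.4% of replicates 1 and 3.

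Stat3 was seen in 40.5, 22.6 and 61.9% of control cells of replicates 1, 2 and 3, and in 47.3, 25.6 and 70.9% of auxin cells. Pim3 was seen in 57.7, 38.6 and 57.1% of control and 65.7, 36.5 and 46.8% of auxin cells. Both were lowest in replicate 2. The receptor chains were caught in few cells at this depth, Lifr in 10.8 to 25.0% and Il6st in 11.3 to 25.0% of a group. Jak1 was seen in 19.3 to 30.2%. Il6st in replicate 2 had the lower level but the higher share in auxin cells, 12.6% against 11.3% of control cells. Without thinning its share there went with the level, at 24.5% of auxin and 29.1% of control cells. Pim1 was seen in 14.3, 15.2 and 33.3% of control and 10.7, 9.39 and 25.3% of auxin cells of replicates 1, 2 and 3, highest in replicate 3. The binomial intervals cover the sampling of cells and not the spread between plates or runs, and no difference between replicates is read from them.

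**Figure D3:**
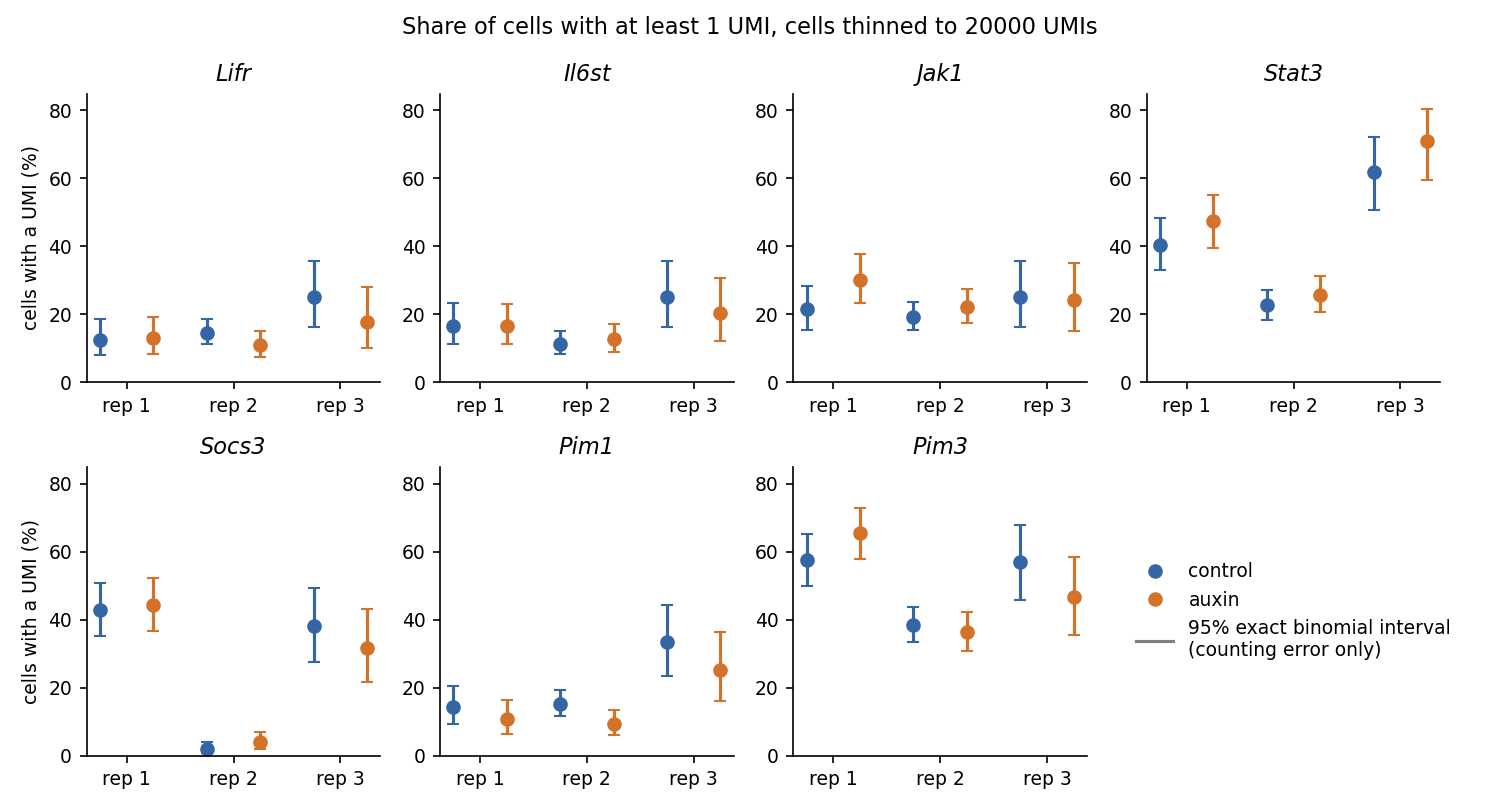
Share of cells (%) with at least 1 UMI of each gene after thinning to 20000 UMIs, with 95% exact binomial intervals, by replicate and condition. Only Socs3 comes near 0, in replicate 2, where 1.93 and 3.97% of cells had a UMI.

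Auxin against control asks whether the pathway's transcripts changed within 6 h of cohesin loss. Stat3 was higher in auxin cells of all 3 replicates, by log2 ratios of 0.38, 0.20 and 0.36, and Pim3 was lower in all 3, by -0.17, -0.21 and -0.67. The other 5 members moved both ways. Jak1 gave 0.66, 0.32 and -0.61, Socs3 0.03, 0.65 and -0.30, Pim1 0.07, -0.95 and -0.61, Lifr 0.08, -0.63 and -0.50, and Il6st -0.02, -0.59 and 0.26. Hence, on the plates used, 1 of 7 members was higher in every replicate and 1 of 7 lower, where 15.6 and 13.7% of all tested genes were. The rise of Stat3 in replicate 3 depended on the plates. With the 2 left-out plates placed as in the source values it was -0.03 (67.9 CPM in control and 66.6 CPM in auxin cells), and as annotated 0.42. Pim3 in replicate 3 was then -0.31 and -0.34.

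**Figure D4:**
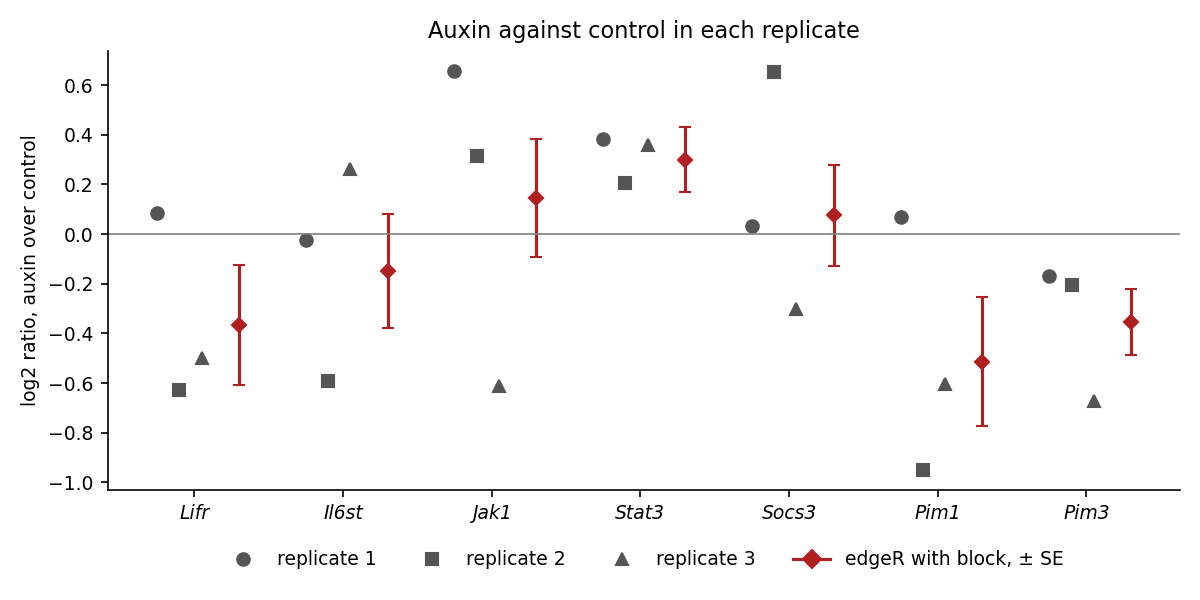
Log2 ratio of CPM, auxin over control, for each gene in replicates 1 (circles), 2 (squares) and 3 (triangles), with the edgeR estimate of the blocked fit and its standard error (red diamonds). Stat3 lies above 0 and Pim3 below 0 in all 3 replicates.

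None of the 7 members passed edgeR's quasi-likelihood test. Without a block the log2 fold change was 0.35 for Stat3 (standard error 0.606), 0.19 for Jak1 (0.416), -0.02 for Il6st (0.534), -0.08 for Socs3 (1.41), -0.34 for Lifr (0.378), -0.35 for Pim3 (0.512) and -0.44 for Pim1 (0.577). The members' median was -0.08, beside 0.00 over all genes, and edgeR called 0 of 17514 genes, that is 0% (33 at an unadjusted p under 0.05, and DESeq2 0 with 66 unadjusted). With the replicate as a block edgeR called 3 genes, 0.0171% of those tested, and again no member. The closest were Pim3, with -0.35 (standard error 0.132, edgeR adjusted p = 0.803, unadjusted 0.0263), and Stat3, with 0.30 (0.132, edgeR adjusted p = 0.842, unadjusted 0.05). A p above the threshold does not show that these levels were equal, and the standard errors bound what could be seen.

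Plates give the spread behind these ratios, though plates of 1 replicate are not replicates of a condition. In replicate 2 Pim1 ran from 6.90 to 10.4 CPM on 4 control plates and from 3.91 to 5.30 CPM on 4 auxin plates, without overlap. It was the 1 member of 7 lower in this way, beside 5.78% of all genes, and 0 of 7 were higher, beside 7.47%. In replicate 1 Jak1 stood at 17.6 and 17.1 CPM on the control plates and 35.1 and 18.8 CPM on the auxin plates. It was the 1 member of 7 higher without overlap, beside 17.8% of all genes, and 0 of 7 were lower, beside 13.3%. Pim1 in replicate 1 stood at 12.98 and 6.02 CPM on control and 10.8 and 8.50 CPM on auxin plates, which overlap. Replicate 3 has 1 plate used per condition and no such spread.

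The share of cells with a UMI was compared between conditions over the replicates. Averaged over the 3 replicates, it differed by 6.29 ± 3.01 percentage points for Stat3 (SD, n = 3), higher in 3 of 3, and by -5.81 ± 2.19 for Pim1, lower in 3 of 3. Without thinning these counts did not hold. Stat3 then went from 53.1 to 49.7% in replicate 2 and Pim1 from 32.7 to 38.5% in replicate 1. At 10000 UMIs the mean differences were 1.66 and -2.69 points. Replicate 1 then gave -0.75 points for Stat3, while Pim1 stayed lower in 3 of 3. Both counts also failed with the left-out plates placed as in the source values. Replicate 3 then differed by -0.32 points for Stat3 and 1.17 for Pim1, and the means were 3.19 and -2.74. With these plates as annotated both counts held, with means of 6.41 and -6.28 points. When the signs of the 3 differences were permuted exactly (two-sided), both had p = 0.25, the smallest possible, and 0.875 after adjustment over the 7 members. The other differences were 3.51 ± 4.90 points for Jak1, -0.96 ± 4.76 for Socs3, -1.17 ± 3.18 for Il6st, -1.49 ± 9.14 for Pim3 and -3.51 ± 3.90 for Lifr, with exact p between 0.50 and 1. A signalling receptor needs both chains, and a UMI of both Lifr and Il6st was found in 4.76, 1.65 and 7.14% of control cells of replicates 1, 2 and 3 and 1.78, 1.08 and 1.27% of auxin cells. The difference of -3.14 ± 2.66 points (exact sign-flip p = 0.25) rests on 8, 6 and 6 control cells and 3, 3 and 1 auxin cells. It was -0.97 points at 10000 UMIs, -4.81 without thinning and -1.78 without replicate 3.

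The rest of the pathway was taken from 6 lists with 57 genes, of which 52 were tested. Of the 12 targets of STAT3 in ES cells, 5 were lower and 2 higher in replicate 2 without overlap, beside 5.61 and 9.18% of all genes. Tfcp2l1, a naive pluripotency factor, stood at 249 and 300 CPM in control cells of replicates 1 and 3 and 4.10 CPM in replicate 2, a difference of 66.9-fold, and at 113-fold in auxin cells. Klf4, another factor of that state, was 38.8-fold lower in control and 39.4-fold in auxin cells, and Bcl3, a nuclear coregulator of NF-kappaB, 13.5-fold and 10.2-fold. Klf5 was 4.75-fold and 6.00-fold lower, and Sgk1, a kinase, 2.16-fold and 6.23-fold. The opposite held for Pim2, the third PIM kinase, at 12.6 and 24.9 CPM in control cells of replicates 1 and 3 and 1222 CPM in replicate 2, 65.2-fold higher. Ccnd1 was 2.70-fold higher in control and 3.52-fold in auxin cells of replicate 2. These 7 genes and those of the next sentences were singled out after their values were seen.

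Each of the other lists had at most 1 gene set apart in either direction, to be read against the same 5.61 and 9.18% of all genes. Of the 9 other kinases and STATs 1 was lower, Jak3, at 2.94 CPM in control cells of replicate 2 and 16.6 and 16.2 CPM in the others. Of the 14 inhibitors 1 was lower, Pias2, and 1 higher, Socs2, the latter at 98.0 CPM in control cells of replicate 2 and 43.5 and 34.6 CPM in the others. Socs2 and Socs3, both feedback inhibitors of cytokine receptors, thus stood on opposite sides. Of the 9 genes of the SHP2, MAPK and PI3K branches 1 was higher, Mapk3, by 5.24-fold in control cells. Of the 4 receptor chains tested 1 was higher, Il11ra1, and of the 4 ligands tested 0 were apart in either direction. Lif itself stood at 2.84 to 7.81 CPM in the 6 sums.

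**Figure D5:**
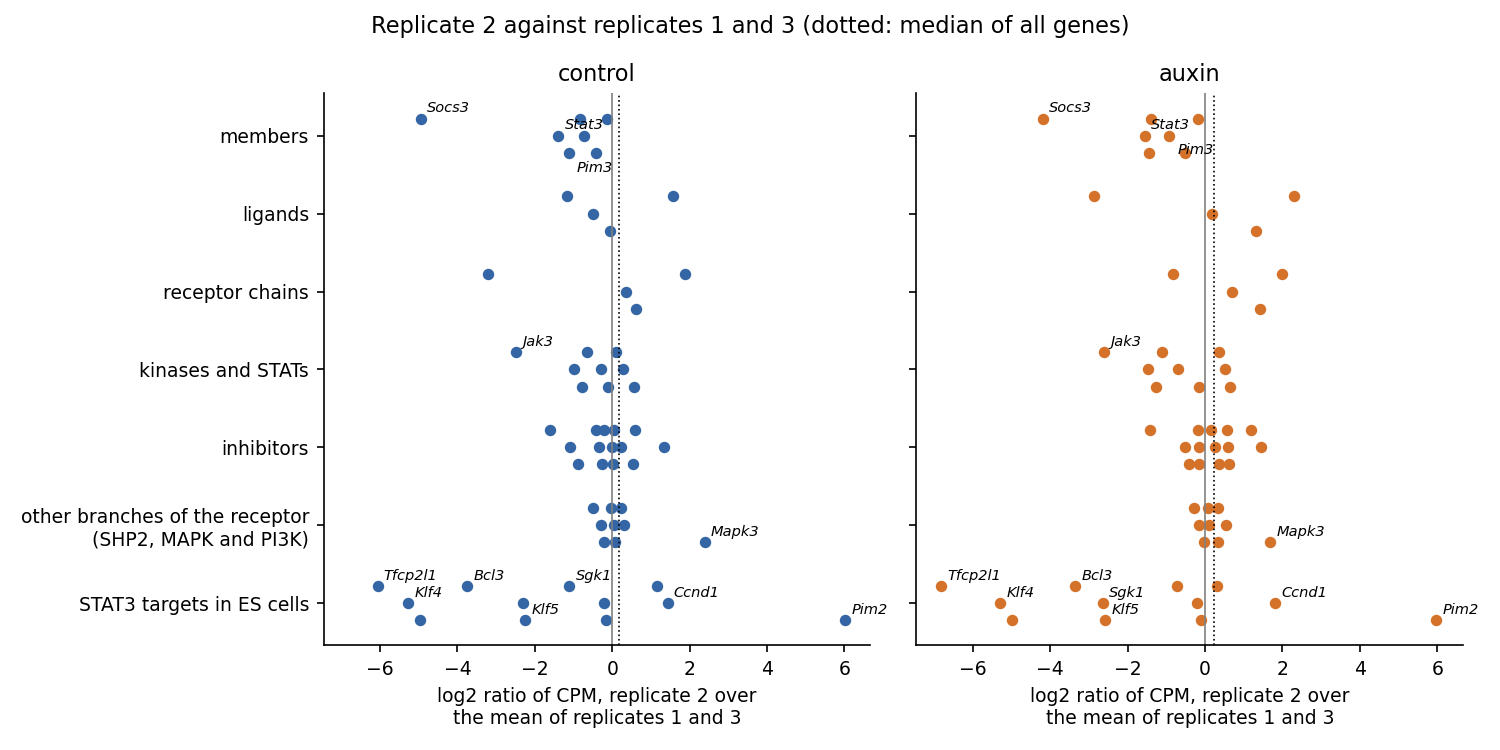
Log2 ratio of CPM in replicate 2 over the mean of replicates 1 and 3, in control (left) and auxin cells (right), for the 7 members and the tested genes of 6 pathway lists, 1 point per gene; the dotted line is the median of all genes. Socs3, Tfcp2l1, Klf4 and Bcl3 lie far to the left and Pim2 far to the right in both conditions.

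With auxin, 0 of the 52 other pathway genes passed edgeR's test without the block. With the block Klf4 and Klf5 did, both lower, and they made up 2 of the 3 genes called in all, the other being Dkk1, a WNT antagonist. Klf4 had 141 CPM in control and 64.5 CPM in auxin cells of the first replicate, 2.75 and 1.17 CPM of the second, and 72.7 and 27.5 CPM of the third. Klf5 stood at 303 and 153 CPM, 63.8 and 23.3 CPM, and 304 and 127 CPM. The log2 ratios were -1.12, -1.23 and -1.40 for Klf4 and -0.98, -1.45 and -1.26 for Klf5. On the plates of replicate 2 Klf4 stood at 2.79, 4.22, 1.96 and 2.04 CPM in control and 0.0831, 3.65, 0.326 and 0.589 CPM in auxin cells, which overlap, since auxin plate 2 lay above 3 of the 4 control plates. Klf5 there ran from 43.8 to 95.5 CPM on control and from 15.6 to 39.0 CPM on auxin plates, without overlap. EdgeR with the block gave -1.26 (standard error 0.131, adjusted p = 0.0418) for Klf4 and -1.24 (0.113, adjusted p = 0.0211) for Klf5. Socs3, also a target, gave 0.07 (standard error 0.202) in the same fit. These calls did not hold everywhere, since edgeR with the block gave an adjusted p of 0.454 for Klf4 and 0.424 for Klf5 without replicate 3, 0.0731 for Klf4 without replicate 1, and 0.985 for both with the left-out plates placed as in the source values. Without replicate 3 the log2 fold changes were -1.20 for Klf4 and -1.25 for Klf5, without replicate 1 that of Klf4 was -1.32, and with the source-value plates they were -0.78 and -0.84.

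The genes whose levels over the 14 plates used were most like each member, by Pearson's r of log2(CPM + 1) among 8603 genes, are given as a description. For Socs3 they were Fam198b (r = 0.986), Saa3 (0.985) and S100a11 (0.984). Saa3, an acute phase gene, ran from 0 to 4.72 CPM in replicate 2 and from 34.4 to 164 CPM in the others. For Pim3 they were Elf3 (0.963), Klf4 (0.952) and Camkk2 (0.941). For Stat3 they were Mok (0.973), Ywhag (0.955) and Thap7 (0.954), and for Il6st Zfp296 (0.892), AI467606 (0.878) and Tet2 (0.864). For Pim1 they were Lrrc2 (0.935), Ebf1 (0.912) and Rab29 (0.909). The lowest values were found for Jak1, with Atg3 (0.849), Etaa1 (0.847) and Prkci (0.787), and for Lifr, with Hist1h4i (0.830), Zfp516 (0.769) and Cactin (0.765). Plates of replicate 2 lay below all others for the genes named for Socs3, Stat3, Pim3 and Il6st, and overlapped them for those named for Lifr and Jak1 and for Lrrc2. The 14 plates come from 3 runs and are not independent. Among the members, r was highest for Socs3 with Pim3 (0.869) and Socs3 with Stat3 (0.794) and lowest for Jak1 with Lifr (0.02).

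Across the cells of 1 plate the correlations between members were near 0. A pair was used on a plate where both genes had UMIs in at least 5 cells, which left 7 to 14 of the 14 plates per pair after thinning. The median Spearman correlation over the 21 pairs was then 0.019, beside 0.0038 over all pairs of 9517 genes. On raw counts, where deep cells are high in every gene, it was 0.085 beside 0.15, and on CPM per cell 0.045 beside 0.036. The pair with the highest median was Lifr with Stat3, at 0.10 over 13 plates, and Lifr with Il6st, the chains of 1 receptor, stood at -0.021 over 12. At these sparse counts such values are no finding.

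Where the members lie bears on what was counted. In GENCODE vM21 on GRCm38, Lifr is on chromosome 15 (7090614 to 7197489, plus strand), Il6st on 13 (112464070 to 112510086, plus), Jak1 on 4 (101152367 to 101265282, minus) and Stat3 on 11 (100885098 to 100939540, minus). Socs3 is on 11 (117966079 to 117970047, minus), Pim1 on 17 (29490753 to 29496112, plus) and Pim3 on 15 (88862186 to 88865726, plus). No annotated gene overlaps Lifr, Il6st, Socs3 or Pim3. Pim1 shares 488 exonic bases with the antisense gene Gm26885 (1.09 to 11.4 CPM in the 6 sums), Stat3 72 with Stat5a on the other strand and Jak1 4 with Raver2. Whether strand was used in counting is not given in the sources used here, so that reads from these shared stretches are uncertain.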

How the data were processed

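Single-cell RNA sequencing (Smart-SCRB) was analysed for 3 samples, the replicates, each with control and auxin cells. The authors aligned to mm10 and deposited UMI counts per gene and well, not normalized. The aligner, counter and annotation are not given in the sources used here. The authors also deposited per well the percent of counts from ERCC spike-ins and per plate a saturation fraction. The 92 ERCC transcripts and 11 transgenes (3.65% of UMIs) were left out.

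Wells with more than 2600 detected genes were kept. Counts were summed per replicate and condition (or plate) and tested with edgeR 4.0.16 in R 4.3.3 (quasi-likelihood, TMM, filterByExpr, Benjamini-Hochberg over all genes tested, threshold 0.05). Standard errors were taken as the fold change over the root of F. The replicate numbers pair the samples: the procedure was repeated whole, and within a replicate the deviations of both sums from their group means had correlations of 0.866, 0.824 and 0.666. A blocked fit was added for this reason, and DESeq2 1.42.0. Cells were thinned to 20000 UMIs (seed 1) for shares and correlations, with Python 3.11.15 and scipy 1.17.1. The precision follows from 6064936 to 50448320 UMIs per sum. Scripts were tested on simulated data.

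The members and lists were chosen with earlier results of these data known. Named were the members, pathway genes past the threshold, the 3 genes most like each member (mean of at least 10 CPM) and the highest and absent markers. Alternatives changed scaling, filters, thinning, plates, tool, block and replicates.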

Additional observations from a re-analysis of the deposited data

Results flagged for a closer look

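Jak1 on auxin plate 4 of replicate 2 stood at 13.6 CPM, apart from 19.9, 20.4 and 21.2 CPM on the other 3 plates by more than Dixon's 95% limit for 4 values. It was 1 of 14 groups of plates examined, and chance marks about 1 in 20. The 2 plates of replicate 3 left out of the sums also carried Socs3, at 32.4 CPM on the plate annotated control and 23.8 CPM on the plate annotated auxin. Both lie within or next to the range of 23.9 to 44.8 CPM on the plates used of replicates 1 and 3.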

How the results depend on the processing

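No member passed the test in any of 133 values from 19 alternatives, with 10 at an unadjusted p under 0.05 and a lowest adjusted p of 0.527 (Pim3, DESeq2 with the block). The count over all genes was 3 with the block in edgeR, 56 with it in DESeq2, 3 with it and the replicate 3 plates as annotated, 0 with it and the source-value plates (700 at an unadjusted p under 0.05), both alternatives chosen after seeing the data, and 0 to 32 when a replicate was left out, with or without it (with it 14 without replicate 1, 32 without 2, 2 without 3). Of the other pathway genes, 2 were called with the block, 2 in DESeq2 with it, 2 with it and the annotated plates, 0 with it and the source-value plates, and 0 to 2 when a replicate was left out. The block changed no call of a member.

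Near-zero fold changes changed sign. Il6st stood at 0.094 with the source-value plates and from -0.35 to 0.10 without a replicate. Jak1 ran from -0.15 to 0.50 without a replicate. Socs3 stood at 0.075 with the block, 0.064 with it in DESeq2, 0.039 with the source-value plates, 0.026 and 0.19 with the block and the annotated or source-value plates, and from -0.22 to 0.26 without a replicate. Shares turned for Il6st (0.62 points thinned to 10000 UMIs, 0.84 with source-value plates, -2.42 to 0.62 without a replicate), Socs3 (3.93 unthinned, 1.74 at 10000 UMIs, 1.53 with source-value plates, -2.46 to 1.78 without a replicate), Pim1 (0.98 at 2 UMIs or more) and Pim3 (0.72 with annotated plates, -6.21 to 2.92 without a replicate). The shares of Jak1 and Lifr kept their sign but ran from 0.89 to 5.74 and from -5.52 to -1.63 points without a replicate. The cause of these shifts was not tested.

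Replicate 2 stayed below the others for Socs3, Stat3 and Pim3 under every alternative run. Thinning gave -3.38 for Socs3 in auxin and -0.96 for Pim3 in control cells, and TMM scaling -1.31 for the latter. Against replicate 1 alone Stat3 stood at -0.85 in control and -1.03 in auxin cells, and against replicate 3 alone at -1.79 and -1.95. Lifr turned to 0.15 and 0.19 with thinning and 0.32 against replicate 1 (control), and Jak1 to 0.35 against replicate 3 (auxin). The correlation of members was 0.085 on raw counts.

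Depth limits the receptor chains, seen in at most 25.0% of thinned cells, and 3 replicates limit every exact permutation test of shares to p = 0.25.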

Other observations

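The UMIs of the members, taken without thinning, were spread unevenly over cells. Cells differ in depth and the counts are sparse, and no other genes were compared, so that this is not read as a trait of these genes. The tenth of cells with the most Il6st UMIs held 58.3 to 78.1% of all of them in the 6 groups, and for Lifr 48.7 to 76.2%. The ranges were like these for Jak1, at 51.9 to 64.0%, and Pim1, at 42.8 to 69.1%. Stat3 ran from 29.7 to 52.8%, lowest in replicate 3, and Pim3 from 30.6 to 39.0%. Socs3 ran from 34.1 to 37.5% in replicates 1 and 3 and stood at 100 and 96.6% in control and auxin cells of replicate 2, where few cells had any. Among cells with any Socs3, the median was 5 UMIs in both conditions of replicate 1 and 2 to 3 in the other groups.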
